A study of Mus musculus with 6 samples.

Results

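GLI and GLIS proteins are related zinc finger transcription factors that read G-rich DNA, and the GLI members are the last step of Hedgehog signalling. The 9 genes described here were chosen by name from the 54418 identifiers in the deposited count file: the GLIS factors Glis1, Glis2 and Glis3, the GLI factors Gli1, Gli2 and Gli3, the Hedgehog receptor Ptch1, the signal transducer Smo and the GLI inhibitor Sufu. All 9 members were found and all 9 passed the filter on low counts. RNA was sequenced from sorted mammary epithelial cells of 4-week-old C57BL/6 females, with 3 WT mice (Glis2+/+) and 3 Glis2 KO mice (Glis2-/-). The KO was in the germline, so every cell type of the gland and every other tissue carried it, and the part of the gene that the allele removes is not given in the sources used here. Cells were stained for TER-119, CD31 and CD45, which mark blood and endothelial cells, and for the epithelial surface proteins CD24 and CD49f, and were sorted.

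In Hedgehog signalling, a secreted ligand binds PTCH1, which otherwise holds SMO inactive, and active SMO at the primary cilium releases GLI2 and GLI3 from SUFU. Without ligand GLI3 is cut into a repressor, with ligand full-length GLI2 acts mainly as an activator, and Gli1 and Ptch1 are textbook target genes whose RNA is used as a readout of the pathway. GLIS2 is known mainly as a repressor, is tied to the cilium and is needed in the kidney, while GLIS3 is known for its part in pancreatic beta cells and the thyroid. The comparison asks what the loss of Glis2 did to the RNA of its own family and of the pathway whose factors share its DNA-binding domain.

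Total counts per library ran from 24996524 to 31393917. The labelled cell type was checked by markers: all 6 epithelial markers were detected in every library, with summed levels of 3482 to 5747 counts per 1000000 counted reads (CPM) in WT and 3746 to 5613 CPM in KO. Markers of other cell types were also present. The 8 fibroblast markers summed to 2342 to 7800 CPM in WT and 2641 to 5976 CPM in KO, the 5 endothelial markers to 103 to 583 CPM and 163 to 600 CPM, and the 5 immune markers to 15.2 to 28.2 CPM and 29.0 to 63.3 CPM, with every marker of these lists detected in every library. The 6 basal markers summed to 3727 to 4864 CPM in WT and 5076 to 6105 CPM in KO. The basal sums did not overlap between genotypes, and neither, by a narrow margin, did the immune sums. Taken singly, 1 of the 6 basal and 2 of the 5 immune markers had groups that did not overlap, beside 11.7% of all genes tested. The part of this makeup in the values below was not tested, and in bulk RNA fewer cells of a type cannot be told apart from less RNA per cell.

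GLI proteins bind the 9-letter site GACCACCCA and GLIS proteins the related GACCCCCCA, and the start of the GLIS-type site read on the other strand is the core TGGGGGG. RefSeq promoter windows (GRCm38.p6, 250 bases before to 50 after the start) were matched for 7 members: Glis1, Glis3, Gli2, Gli3, Ptch1, Smo and Sufu. On either strand, the GLI site was in 0 of these 7 windows and in 0.253% of all 32851 promoter windows, and the GLIS site was in 0 of 7 and 0.222%. The 7-letter core, searched after the longer sites had given no match and lying within the GLIS site, was in 4 of the 7 windows against 8.47% of all windows. The windows compared were not matched for base composition, so these shares do not show an excess of the core. These 4 stretches are shown because they are where the letters shared with the GLIS site lie near the starts of Hedgehog genes. Each is given 5′ to 3′ on the gene's strand with the core, or its reverse complement, in capitals.
Ptch1, chr13:63565797-63565823, minus strand: cggggacgtcTGGGGGGgacttgggga
Smo, chr6:29735436-29735462, plus strand: cctccgcggaTGGGGGGgccgggcttg
Gli2, chr1:119053799-119053825, minus strand: agggtggtgtCCCCCCAcccccagcct
Gli3, chr13:15463497-15463523, plus strand: tcggcgcgtcCCCCCCAgcgctcctcc
The core began 78 bases before the RefSeq start in Ptch1, 51 in Smo, 196 in Gli2 and 216 in Gli3. In the GENCODE M21 annotation the Ptch1, Smo and Gli2 stretches overlapped no exon, and the Gli3 stretch overlapped an exon of Gm6556. The Gli3 stretch also lay inside the Gli3 gene, after the start of the model Gli3-202 at 15463235. A match of letters is a description and was not tested as a binding site.

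The targeted gene, Glis2 (chromosome 16, 4594713 to 4624924, plus strand, GRCm38), was still read in every KO library. Glis2 had 671, 663 and 510 counts in WT replicates 1 to 3 and 252, 509 and 510 counts in KO replicates 1 to 3. Scaled to library size by TMM, these were 21.7, 23.2 and 19.6 CPM in WT and 10.1, 17.0 and 16.3 CPM in KO. Every KO library lay below every WT library, and KO replicate 1 was the lowest. The WT mean was 21.5 ± 1.83 CPM (SD, n = 3) and the KO mean 14.5 ± 3.81 CPM (SD, n = 3), a log2 fold change of -0.57 with a standard error of 0.22 and a 95% interval of -1.08 to -0.06. In edgeR's quasi-likelihood test the unadjusted p was 0.0319 and the Benjamini-Hochberg adjusted p was 0.906, so Glis2 was not called. Without KO replicate 1 the log2 fold change was -0.37. Counts of Glis2 in the KO libraries were far from 0, and without the position of the deletion they do not say whether these reads came from the part that was removed.

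The same reads gave another answer as a level per transcript length. TPM values divide each transcript's reads by its length, and here they were rescaled to sum to 1000000 over protein-coding genes (coding TPM), because the small non-coding RNA gene Gm23935 held 83.0% to 85.7% of all deposited TPM. Glis2 stood at 29.7, 38.4 and 18.4 coding TPM in WT and at 30.6, 30.2 and 30.6 coding TPM in KO. The KO values lay inside the WT range. On log2(coding TPM + 1) in limma the difference was 0.14, with the opposite sign to that of the counts and an adjusted p of 0.971. Without the rescaling, on log2(TPM + 1) as deposited, it was -0.021 (limma, adjusted p = 0.984).

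The count and the TPM of a gene differ by the mean length of the transcripts that its reads were given to, so their ratio was compared between genotypes. The ratio was calibrated on 1227 coding genes with a single annotated transcript. On these same genes it returned the annotated length with a median deviation of 0.696% to 0.862%. It was not checked on genes with several transcripts, such as Glis2. For Glis2 the implied mean transcript length was 1809, 1440.1 and 2496 bases in WT and 875, 1334 and 1324 bases in KO. All 3 KO values were below all 3 WT values. The log2 ratio of length, KO minus WT, was -0.77 with a standard error of 0.33, and limma over 17068 genes gave an unadjusted p of 0.0698 and an adjusted p of 1.00. Groups did not overlap in this measure for 8.34% of those genes, and 0 of them (0%) passed the adjusted threshold of 0.05 in limma against 778 (4.56%) at an unadjusted p under 0.05. The difference was -0.53 without KO replicate 1 and -0.54 without WT replicate 3.

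The annotated models of Glis2 show which lengths were possible. GENCODE M21, an earlier annotation than the Ensembl v100 the authors used, lists 5 Glis2 transcripts. The full coding model Glis2-201 has 7 exons and 3619 bases and spans the gene from 4594713 to 4615957. The retained-intron model Glis2-202 starts at 4608627 and has 3512 bases. The other models are short: Glis2-203 with 711 bases, Glis2-204 with 655 bases and the partial coding model Glis2-205 with 418 bases, which ends at 4610413. Every library's implied length lay between the short and the long models, and it was shorter in each KO library. Which short model took the reads cannot be read from gene sums.

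**Figure D1:**
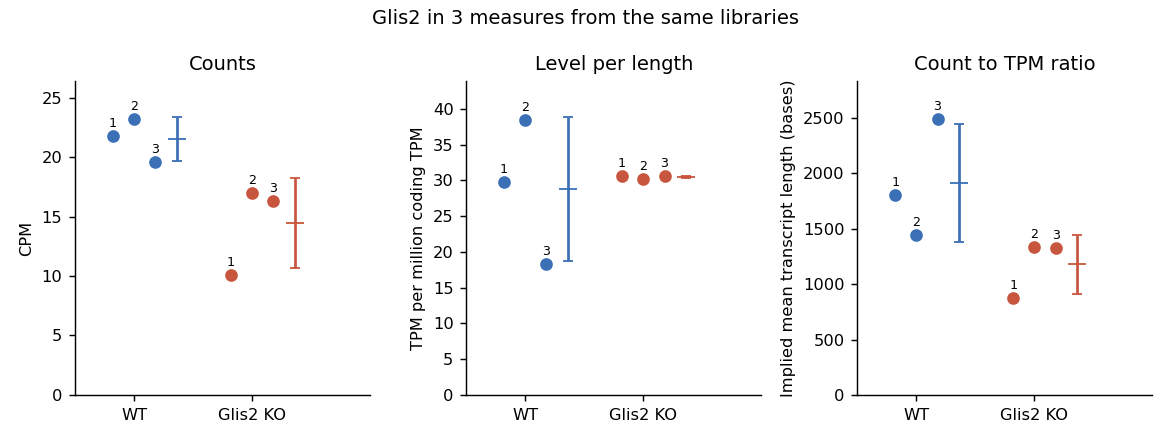
Glis2 in 3 measures by library. Points are libraries numbered by replicate, bars give the mean ± SD of 3 libraries, and the axes start at 0. In CPM (left) KO libraries lie at 10.1 to 17.0 and WT libraries at 19.6 to 23.2. In coding TPM (middle) the KO points fall within the WT range. The implied mean transcript length (right) is 875 to 1334 bases in KO and 1440.1 to 2496 bases in WT.

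Over all 9 members, none was called by edgeR, where a call needed an adjusted p no higher than 0.05 together with a log2 fold change of 0.58 or more in either direction. The same rule called 0 of 21236 genes tested (0%), while 1130 genes (5.32%) had an unadjusted p under 0.05, and Glis2 was the only member among them. DESeq2 with apeglm shrinkage, the method of the study, called 45 of 37074 genes (0.121%) and again no member. Groups did not overlap in CPM for 1 of the 9 members, Glis2, and for 11.7% of all genes tested. Split by direction, 5.50% of genes had every KO library below every WT library and 6.23% had the reverse. The median log2 fold change of the members was 0.10, beside 0.01 over all genes tested. A p above the threshold with 3 mice a group does not show that the genotypes were alike, and the exact permutation test of a single gene cannot give a p below 0.1 here.

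The other GLIS factors were not called, and their groups overlapped. Glis3 (chromosome 19, 28258851 to 28680077, minus strand) was measured at 27.4, 28.0 and 23.9 CPM in WT and 30.9, 30.8 and 27.8 CPM in KO. Only WT replicate 2 reached above the lowest KO library. The Glis3 difference was 0.17 ± 0.13 (log2, SE) with a 95% interval of -0.14 to 0.48. Glis1 (chromosome 4, 107434591 to 107635061, plus strand), known for its use in reprogramming cells to pluripotency, was read 44, 113 and 24 times in WT and 16, 80 and 50 times in KO. The libraries of each genotype spread over more than the whole gap between the means, and the interval of the log2 difference, -1.95 to 1.23, allows both a loss and a gain. The adjusted p in edgeR was 0.941 for Glis3 and 0.977 for Glis1.

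Gli1 (chromosome 10, 127329882 to 127341974, minus strand), a reported target of GLIS2 repression as well as the classical Hedgehog readout, was low in all libraries. It had 50, 43 and 88 counts in WT and 33, 16 and 136 counts in KO, or 1.62, 1.51 and 3.38 CPM and 1.32, 0.534 and 4.35 CPM. The KO group held both the lowest and the highest library. The mean was 2.17 ± 1.05 CPM in WT and 2.07 ± 2.01 CPM in KO (SD, n = 3 each), and the log2 fold change was -0.06 with a 95% interval of -1.74 to 1.61 (edgeR, adjusted p = 0.998). Counting error alone at 16 reads is 25.0%. The within-genotype SD of log2 CPM of Gli1 was 1.11, larger than or equal to that of 88.9% of genes tested. The sign changed when any of 3 libraries was left out, to 0.18 without KO replicate 1, 0.39 without KO replicate 2 and 0.40 without WT replicate 3. The value was -1.25 without KO replicate 3, -0.25 without WT replicate 1 and -0.27 without WT replicate 2. Summed fibroblast markers stood at 7454, 2342 and 7800 CPM in WT and 4339, 2641 and 5976 CPM in KO. The part of fibroblast RNA in the spread of Gli1 was not tested. With both libraries numbered 2 left out, a choice made after seeing the data, Gli1 stood at 0.19.

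In CPM, Gli2 gave the largest point estimate among the members in edgeR and a wide interval. The gene lies on chromosome 1, 118834132 to 119053619, minus strand. Its values were 2.85, 5.53 and 4.41 CPM in WT and 2.72, 8.05 and 8.66 CPM in KO. KO replicates 2 and 3 were above every WT library and KO replicate 1 was below all of them. The log2 fold change was 0.60 ± 0.46 (SE, 95% interval -0.44 to 1.65, edgeR adjusted p = 0.941). It was 0.97 without KO replicate 1, 0.32 without KO replicate 3 and 0.37 without WT replicate 1.

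Gli3, the main repressor form in the pathway, was the most abundant GLI factor. The gene lies on chromosome 13, 15463235 to 15730026, plus strand. It was measured at 71.9, 51.5 and 66.2 CPM in WT and 68.8, 60.5 and 74.0 CPM in KO. The groups overlapped, and WT replicate 2 was the lowest library. The log2 fold change was 0.10 ± 0.15 (SE), and the interval of -0.24 to 0.44 excludes a change as large as the log2 threshold of 0.58 used for a call.

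Among the receptor and its partners the estimates were small. Ptch1 (chromosome 13, 63508328 to 63573598, minus strand) was at 40.2, 34.5 and 54.6 CPM in WT and 43.3, 45.2 and 49.8 CPM in KO. The KO libraries sat inside the WT range, and the log2 fold change was 0.10 ± 0.17 (SE, 95% interval -0.30 to 0.50). It was 0.30 without WT replicate 3, -0.04 without WT replicate 2 and -0.03 with both libraries numbered 2 left out. Smo (chromosome 6, 29735503 to 29761365, plus strand) was the steadiest member, at 99.0, 91.4 and 89.0 CPM in WT and 95.9, 98.0 and 99.2 CPM in KO. Its log2 fold change was 0.07 ± 0.09 (SE, 95% interval -0.15 to 0.29), and its within-genotype SD of 0.06 on the log2 scale was larger than or equal to that of 1.64% of genes tested. Sufu (chromosome 19, 46396896 to 46488804, plus strand) was at 56.5, 51.8 and 48.2 CPM in WT and 52.7, 55.9 and 62.6 CPM in KO. WT replicate 1 was above 2 of the 3 KO libraries. The log2 fold change of Sufu was 0.13 ± 0.12 (SE, 95% interval -0.14 to 0.40). The edgeR adjusted p was 0.977 for Ptch1, 0.973 for Smo and 0.946 for Sufu. For Gli3, Ptch1, Smo and Sufu alike the interval stayed inside the 0.58 threshold in both directions.

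**Figure D2:**
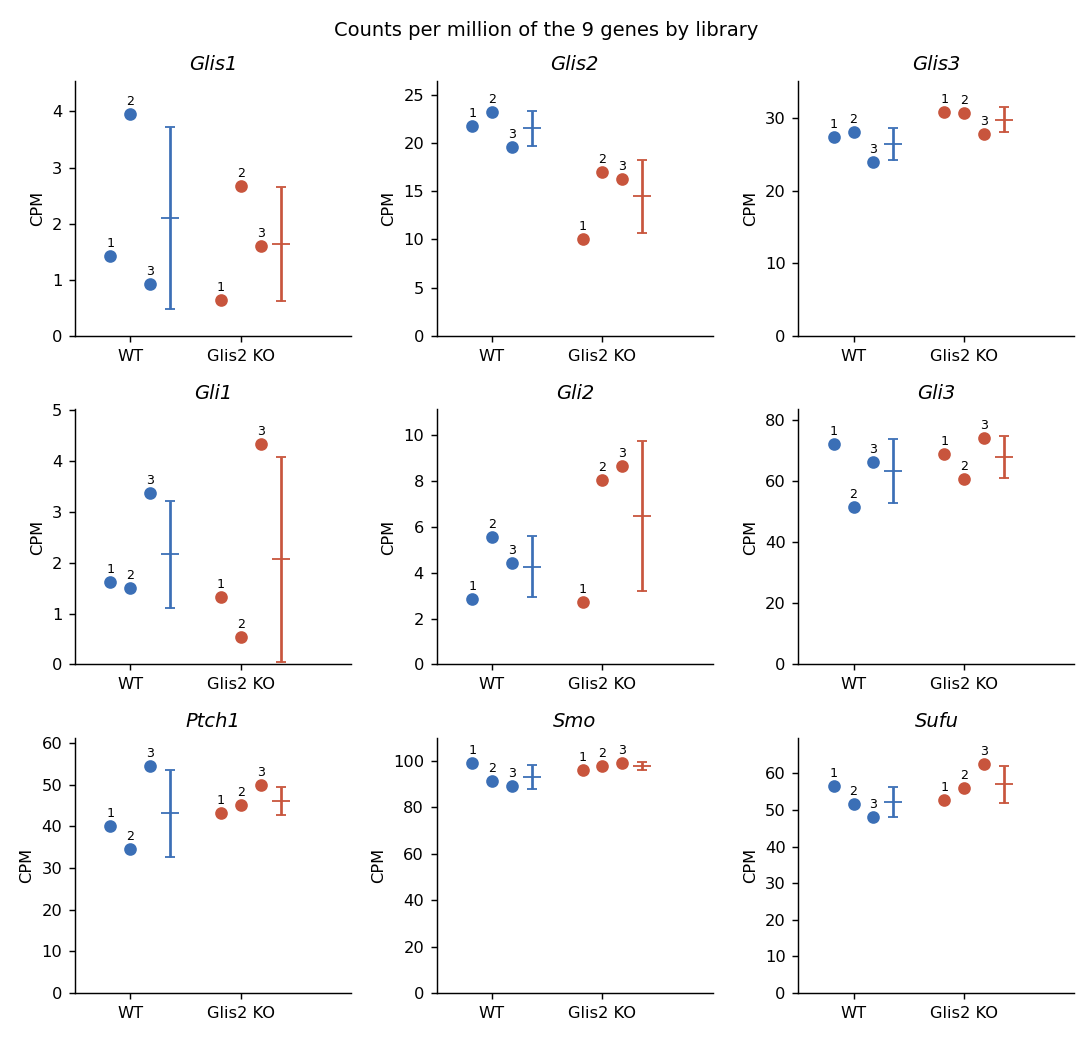
CPM of the 9 genes by library, with a separate vertical axis from 0 in each panel. Points are libraries numbered by replicate and bars give the mean ± SD of 3 libraries. In the Glis2 panel alone the KO points lie below all WT points, and Gli1 and Glis1 spread widely within each genotype.

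**Figure D3:**
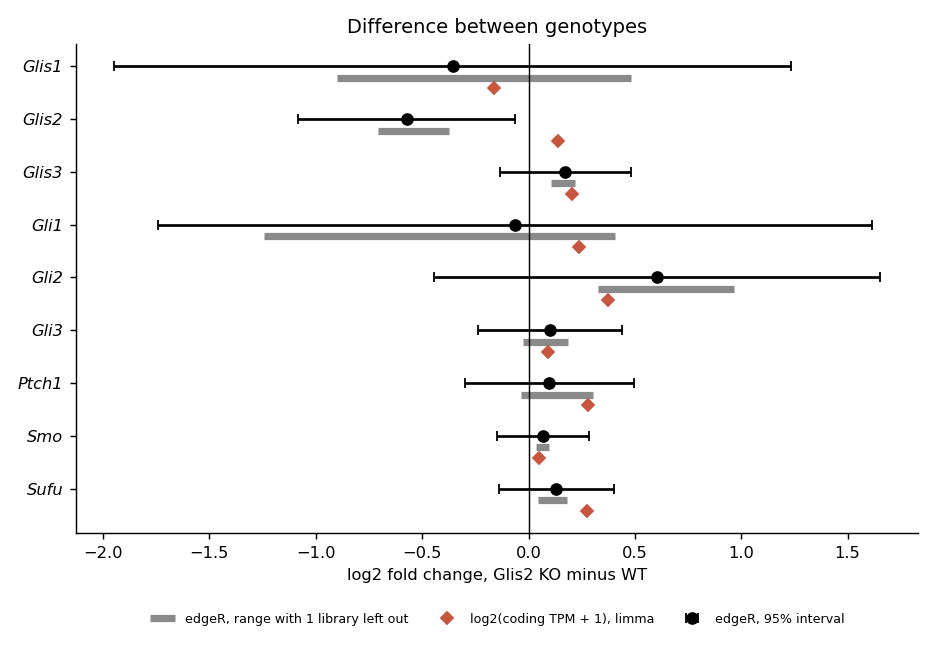
Log2 fold change of each gene, Glis2 KO minus WT. Black points and bars are edgeR estimates with 95% intervals, grey bars the range of the estimate when any 1 library is left out, and diamonds the limma estimate on log2(coding TPM + 1). The Glis2 interval, -1.08 to -0.06, is the only one that does not reach 0, and its diamond lies at 0.14 on the other side of 0.

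Compared per transcript length, the members fell into a high and a low set. In order of mean coding TPM over all 6 libraries, Smo stood at 59.0 (range 54.9 to 63.8) and Sufu at 53.0 (43.6 to 61.3). Their ranges overlapped, and Smo was higher in 4 of 6 libraries. Gli3 followed at 35.6 (26.8 to 42.3), below Sufu in every library and with no overlap of the ranges. Ptch1 at 31.7, Glis2 at 29.6 and Glis3 at 20.3 came next with overlapping neighbours, though Glis2 was above Glis3 in 6 of 6 libraries. A gap separated Glis3, with its lowest library at 14.8, from Gli2 at 5.02 (2.62 to 7.84). Glis1 at 4.72 (1.24 to 11.0) and Gli1 at 1.71 (0.891 to 3.37) were the lowest, and their ranges overlapped.

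Within a library, Gli3 exceeded Gli2 by 4.36-fold to 14.9-fold and Gli1 by 11.3-fold to 45.3-fold in coding TPM. Gli2 was above Gli1 in 6 of 6 libraries, by 1.70-fold to 4.27-fold. The RNA of GLI factors in these cells was mostly Gli3 in both genotypes. Between genotypes, groups did not overlap in coding TPM for 1 of the 9 members, beside 11.1% of coding genes. That member was Sufu, at 51.4, 48.7 and 43.6 in WT and 61.3, 60.3 and 52.6 in KO, with a log2 difference of 0.27 in limma (adjusted p = 0.858).

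**Figure D4:**
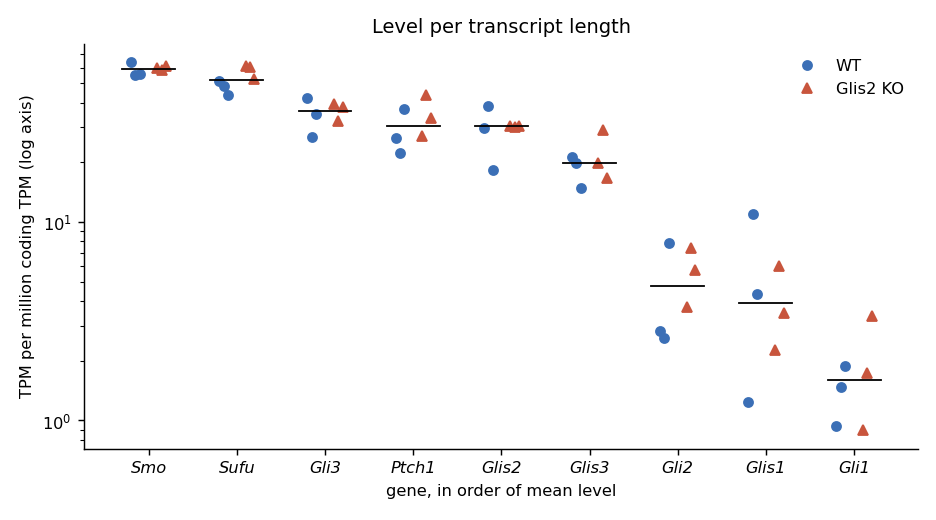
Level per transcript length of the 9 genes, in coding TPM on a log axis, ordered by mean. Circles are WT libraries, triangles Glis2 KO libraries and lines the median of all 6. Smo, Sufu, Gli3, Ptch1, Glis2 and Glis3 lie above 14, while Gli2, Glis1 and Gli1 lie at 11.0 or below.

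The implied transcript length also varied for other members, with overlapping groups. Smo stood at 3648 to 3710 bases in all 6 libraries, beside its coding model of 3779 bases. Gli3 stood at 3949 to 4449 bases, well under its longest model of 8170 bases. Ptch1 ran from 3379 to 3631 bases in 5 libraries and was at 2323 bases in KO replicate 2. Gli1 ran from 2326 to 4085 bases in 5 libraries and was at 802 bases in KO replicate 2, the library with its fewest counts. Glis1 spread from 616 to 2747 bases within WT alone. Sufu ran from 2410 to 2643 bases in WT and 2029 to 2777 bases in KO. Groups did not overlap in length for 1 of the 9 members, Glis2, beside the 8.34% of all genes given above.

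The rest of the pathway was taken from lists of 50 further genes, of which 45 passed the filter. None was called by edgeR or by DESeq2, and 2 had an unadjusted p under 0.05. In all, 30 stood higher and 15 lower in KO in edgeR, where 51.6% of all genes tested stood higher. The median log2 fold change of the 45 was 0.07. In CPM the groups of 3 genes did not overlap, against the 11.7% of all genes given above. This tilt was not shared by all lists in mean coding TPM. There 2 of 4 ligand genes, 1 of 5 co-receptor genes, 6 of 15 GLI regulators and 3 of 9 targets stood higher in KO. So did 2 of 3 further GLIS2 targets, 7 of 9 GLIS partners and the 1 ZIC factor tested.

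Hedgehog ligands were scarce. Shh had 0 counts in every WT library and 4, 0 and 37 counts in KO, so nearly all Shh reads came from KO replicate 3. A count of 0 allows up to 3 counts. Ihh had 7, 2 and 10 counts in WT and 2, 0 and 0 in KO, and neither ligand passed the filter. Dhh was the ligand with most reads, 217, 82 and 153 in WT and 99, 81 and 250 in KO, with a log2 fold change of -0.11 ± 0.48 (SE). In both genotypes the libraries numbered 2 had the fewest Dhh reads. The part of other cell types in the Dhh reads was not tested.

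Of the genes that make or release the ligand, Hhat, the enzyme that attaches palmitate to it, had the smallest p. Hhat was at 8.59, 7.38 and 8.33 CPM in WT and 12.2, 12.6 and 12.1 CPM in KO. All KO libraries were above all WT libraries in CPM, though not in coding TPM (6.83 to 11.6 in WT and 11.1 to 15.3 in KO), with a log2 fold change of 0.60 ± 0.19 (SE), an unadjusted p of 0.0122 and an adjusted p of 0.906 in edgeR. Disp1, which releases ligand from the cell, gave 0.24 ± 0.32 (log2, SE). Scube2, its partner outside the cell, had between 0 and 31 counts and gave -0.61 ± 1.25 (log2, SE).

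Co-receptors were read far more than ligands. Gas1, Cdon and Boc, which help ligand bind PTCH1, lay at 42.8 to 71.7, 39.8 to 84.7 and 61.3 to 88.9 CPM over the 6 libraries. Their log2 fold changes were 0.14 ± 0.18, -0.33 ± 0.23 and 0.20 ± 0.14 (SE). The decoy receptor gene Hhip, which is also a pathway target, was lower. Hhip had 87, 1 and 33 counts in WT and 34, 26 and 14 in KO (-0.63 ± 1.07 log2, SE). Lrp2, a large endocytic receptor, had 14 to 62 counts. None of these 5 genes had groups that did not overlap in CPM. By mean coding TPM, 1 stood higher and 4 lower in KO, and Gas1 was among the lower.

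Among 15 regulators of GLI processing, 10 stood higher and 5 lower in KO, with a median of 0.06 (log2), but 6 stood higher and 9 lower by their mean coding TPM. Stk36, a kinase of the fused family, was at 3.47, 3.50 and 2.73 CPM in WT and 5.36, 6.01 and 4.60 CPM in KO. The groups did not overlap in CPM but did in coding TPM (2.34 to 7.25 in WT and 2.75 to 7.81 in KO), and the log2 fold change was 0.72 ± 0.29 (SE) with an unadjusted p of 0.0351 and an adjusted p of 0.906 in edgeR. Csnk1a1, a kinase that acts on GLI proteins before they are cut, gave 0.09 ± 0.08 (log2, SE).

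Of 9 Hedgehog target genes, 4 stood higher and 5 lower in KO in edgeR, with a median of -0.09 (log2). By mean coding TPM, 3 stood higher and 6 lower. Ccnd1, a cyclin of the G1 phase, was at 236, 232 and 255 CPM in WT and 276, 261 and 257 CPM in KO. Its groups did not overlap in CPM, by a narrow margin, but did in coding TPM (166 to 192 in WT and 179 to 183 in KO), and the log2 fold change was 0.14 ± 0.09 (SE). Mycn, a growth-promoting transcription factor, varied widely and gave 0.88 ± 0.58 (log2, SE). Both had an edgeR adjusted p of 0.940.

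The 3 further reported targets of GLIS2 were not called either. Snai1, a driver of epithelial-mesenchymal transition, gave 0.23 ± 0.44 (log2, SE), the Wnt ligand gene Wnt4 -0.12 ± 0.39 and the cadherin gene Cdh11 0.08 ± 0.43. Of 9 genes for proteins reported to bind GLIS factors, 9 stood higher in KO in edgeR, with a median of 0.09 (log2), and 7 by their mean coding TPM, where Ctbp1 and Hdac3 stood lower. In CPM the groups of each overlapped, and the smallest p values were those of Bbs1, a ciliary trafficking protein, with 0.23 ± 0.23 (log2, SE), and of the co-repressor subunit Hdac3 with 0.12 ± 0.15. Of the ZIC factors, which share the GLI-type zinc fingers, Zic1 alone passed the filter and gave 0.29 ± 0.42 (log2, SE).

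**Figure D5:**
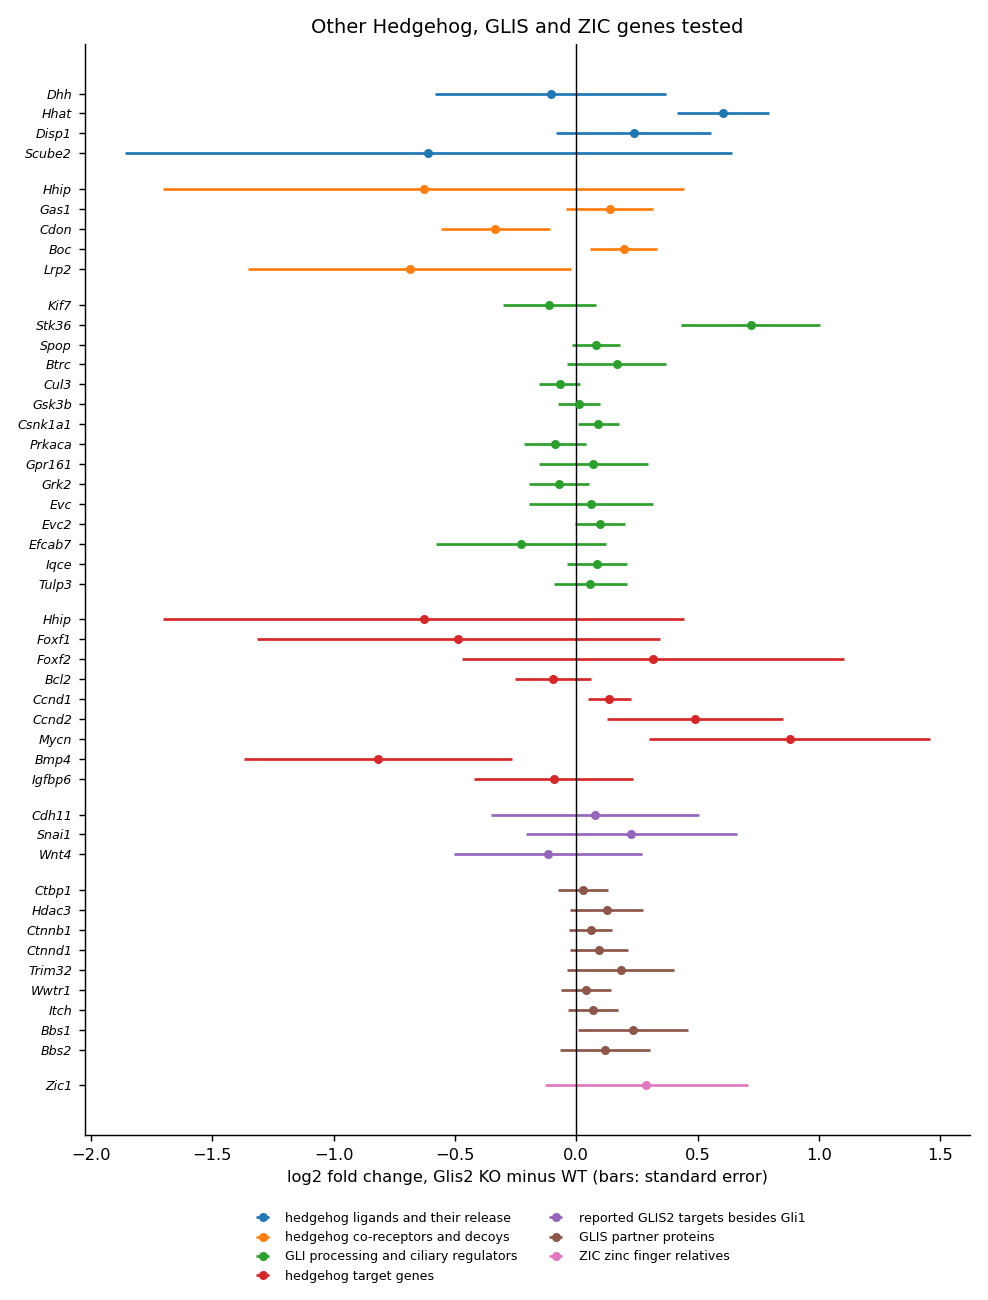
Log2 fold change, Glis2 KO minus WT, of the genes in 7 lists that passed the filter. Points are edgeR estimates, bars 1 standard error and colours the lists, and Hhip appears in both the co-receptor and the target list. The estimates lie on both sides of 0 within most lists, with Hhat at 0.60 and Stk36 at 0.72.

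The genes with a pattern over the 6 libraries most like that of Glis2 were Tcf19, Cdt1 and Pmf1, out of 12146 genes with a mean of at least 5 CPM. Their root mean square differences from Glis2 in centred log2 CPM were 0.08, 0.10 and 0.11. Cdt1 was at 24.0, 29.7 and 20.3 CPM in WT and 12.1, 19.8 and 18.1 CPM in KO. For Gli1 the closest genes were Papss2, Ereg and Gjc3, at 0.40, 0.41 and 0.44. Papss2 was at 9.07, 4.97 and 9.44 CPM in WT and 6.91, 3.27 and 14.9 CPM in KO.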

How the data were processed

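Stranded total RNA libraries were prepared from 1 ng of RNA and sequenced as paired-end reads. The authors quantified reads with Salmon 1.2.1 against Ensembl v100 transcripts on mm10, per the study's methods and the submitters' processing notes, and summed transcripts to genes with tximport. They deposited estimated counts, rounded to whole numbers, and log2(TPM + 1) values, in 6 columns each. Symbols and positions came from GENCODE M21 (54166 of 54418 identifiers matched).

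Counts were tested with edgeR 4.0.16 (filterByExpr, TMM, quasi-likelihood test, genotype as the only term) over all genes, and calls required the thresholds stated in the study, an adjusted p of at most 0.05 and a log2 fold change of at least 0.58. limma 3.58.1 tested log2(count/TPM), centred on each library's median, for genes with at least 10 counts in every library. The conversion of this ratio to bases was added after the data had been seen. DESeq2 1.42.0 with apeglm 1.24.0, other scalings and filters, TPM in limma, a replicate block and leaving out each library were alternatives. Scripts were tested on simulated data. Values for TPM were taken as 2 to the power of the deposited value, minus 1.

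Genes named were all 9 members, every ligand and co-receptor, the 2 genes with the smallest p in each other list, and the 3 genes closest to Glis2 and to Gli1. Cdh11 was named to complete its list. Some genes of these lists are not reported here. Members and lists were chosen with earlier results of these data known. The libraries differed by more than counting noise (lowest chi-square per degree of freedom 18.8), so no file held the same library sequenced again.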

Additional observations from a re-analysis of the deposited data

How the results depend on the processing

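No member was called under any of the 16 other settings run, and the adjusted p of Glis2 ranged from 0.751 to 1. The Glis2 log2 fold change stayed negative under every count setting (-0.71 to -0.37 with 1 library left out, -0.65 without both libraries numbered 2), was -0.021 in log2(TPM + 1) and -0.015 in log2(TPM + 0.1), and turned to 0.14 in coding TPM. The relative length of Glis2 stayed negative (-0.98 to -0.53 with 1 library left out) and uncalled. In log2(TPM + 1), log2(TPM + 0.1) and coding TPM, Gli1 turned to 0.034, 0.12 and 0.24. In the first and second of these, Gli3 turned to -0.049 and -0.061 and Smo to -0.092 and -0.11, while the median of all genes moved to -0.064 and -0.14. Without both libraries numbered 2, Gli1 turned to 0.19 and Ptch1 to -0.031. With 1 library left out, Gli1 ranged from -1.25 to 0.40, Glis1 from -0.90 to 0.48, Gli3 from -0.027 to 0.19 and Ptch1 from -0.038 to 0.30. The cause was not tested. Over all genes, DESeq2 with apeglm called 45, edgeR with no filter 40, log2(TPM + 0.1) 1 and coding TPM 1, against 0 otherwise. Members whose groups did not overlap numbered 0 in log2(TPM + 1) and in log2(TPM + 0.1) (13.1% of all genes in both), 2 without both libraries numbered 2 (34.7%), and 1 to 3 with 1 library left out (19.1% to 23.6%). A limit is the wide interval of Gli1, which had 16 to 136 counts and a within-genotype SD of log2 CPM of 1.11. The cause of that width was not tested.

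The labels give replicate numbers and do not say whether the mice were paired. Deviations of same-numbered libraries from their group means correlated at -0.02, 0.17 and 0.02 over genes. Differently numbered libraries were not compared in this way, so these values cannot decide it. With a replicate block, edgeR called 0 genes and 0 members, Glis2 stood at -0.60, Gli1 at -0.43 and the relative length of Glis2 at -0.77. Group overlap has no value under a block.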
